A study of Mus musculus with 6 samples.

Results

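The genes examined here are 9 that serve the creatine and calcium cycles by which adipocytes can spend energy without uncoupling protein 1 (UCP1). They were taken by symbol from the 22609 genes listed in every sample: Ckb, Ckmt1 and Ckmt2 (creatine kinases), Gatm and Gamt (creatine synthesis), Slc6a8 (creatine uptake), Alpl (an alkaline phosphatase), Atp2a2 (a calcium pump) and Ryr2 (a calcium release channel). All 9 were listed, and 5 had enough reads to be tested between the groups. RNA-Seq of poly(A) RNA was compared in 3 control samples and 3 samples with miR-182 overexpression, all primary cells of inguinal white fat (iWAT) from male C57BL6 mice labelled as 3 weeks old, isolated as stromal vascular cells and differentiated in culture. The labels name a control vector for the first group and electroporation for both, whereas the study's methods name an miRNA mimic, a mimic control, a lipid reagent and older mice. No label says whether the samples of a group came from separate cultures or animals, so the p values measure the spread between samples, which may be technical. Total reads on genes ranged from 25869810 to 28796712 per sample. Levels are given in CPM (read counts scaled to library size, with TMM factors), means are given ± SD over the 3 samples of a group, and intervals on read counts cover counting error only.

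In creatine cycling, a kinase moves phosphate from ATP to creatine and a phosphatase returns phosphocreatine to creatine, so that ATP is spent with no other net change. Creatine is made by the successive enzymes encoded by Gatm and Gamt or taken up by the transporter encoded by Slc6a8. In thermogenic fat the brain-type creatine kinase CKB and the tissue-nonspecific alkaline phosphatase encoded by Alpl have been assigned to this cycle. In calcium cycling, the pump SERCA2, encoded by Atp2a2, takes calcium into the endoplasmic reticulum at the cost of ATP, and channels such as RYR2 and the IP3 receptors let it out again. Both cycles have been described in beige fat, the kind of fat cell the study is about.

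A microRNA lowers mRNAs mainly through sites in the 3′-UTR that pair with its seed, bases 2 to 8 counted from the 5′ end. The RefSeq sequence of the overexpressed miRNA, from chr6:30165962-30165986 of GRCm38.p6 on the minus strand, is shown with its seed in capitals because the sites in the members are read from it. The sequence printed in the study's methods for mature mouse miR-182-5p is not this RefSeq sequence, and neither the labels nor the methods give the sequence of the transfected molecule.
mmu-miR-182-5p: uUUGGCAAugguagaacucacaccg

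The match to this seed, TTGCCAA, occurred in the longest annotated 3′-UTR (GENCODE M21, GRCm38) of 3 of the 9 members, once in each. All 3 were among the 5 members tested. For comparison, 1569 of the 12522 tested genes with an annotated 3′-UTR held it (12.53%). The 3 matches are shown with 10 bases on either side and the match in capitals, on the transcript strand.
Slc6a8: tctcctagccTTGCCAAgcccacctgc
Alpl: ctacccagggTTGCCAAgctgggaaga
Atp2a2: agacattgttTTGCCAAcattgcctat

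These matches lie at chrX:73681410-73681416 on the plus strand, chr4:137741957-137741963 on the minus strand and chr5:122456401-122456407 on the minus strand, which is base 310, 474 and 744 of the respective 3′-UTRs of 1402, 704 and 811 bases. None of the 3 is followed by an A, the base that extends a 7-base match to an 8-base one. The other 6 members, Ckb among them, also lacked the shorter match to bases 2 to 7, which 34.34% of tested genes held. A match is a description of the sequence, and whether these are used as sites was not tested. Only 3′-UTRs were searched, whereas the site the study reports, in Nr1d1, lies in the 5′-UTR.

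With miR-182 overexpression the members moved in both directions. Alpl fell to 0.526-fold, Atp2a2 fell to 0.800-fold, Ckb rose 1.30-fold, and Slc6a8 rose 1.10-fold, while Gamt did not pass the test. With the 2 cutoffs the study states, at least 1.5-fold and an adjusted p under 0.05, only Alpl among the 5 members tested was called, and it was lower. In the same fit (quasi-likelihood test of edgeR, p adjusted by Benjamini-Hochberg over all 13117 genes), 7.45% of all genes tested were called, 1.97% higher and 5.48% lower. By the adjusted p alone 4 of the 5 members passed, 2 higher and 2 lower, against 46.7% of all genes tested, 23.2% higher and 23.5% lower. The median log2 fold change was 0.004 over the 5 members and -0.0043 over all genes tested. Counts over 5 genes carry little weight as a list, and the account below turns on single genes.

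**Figure D1:**
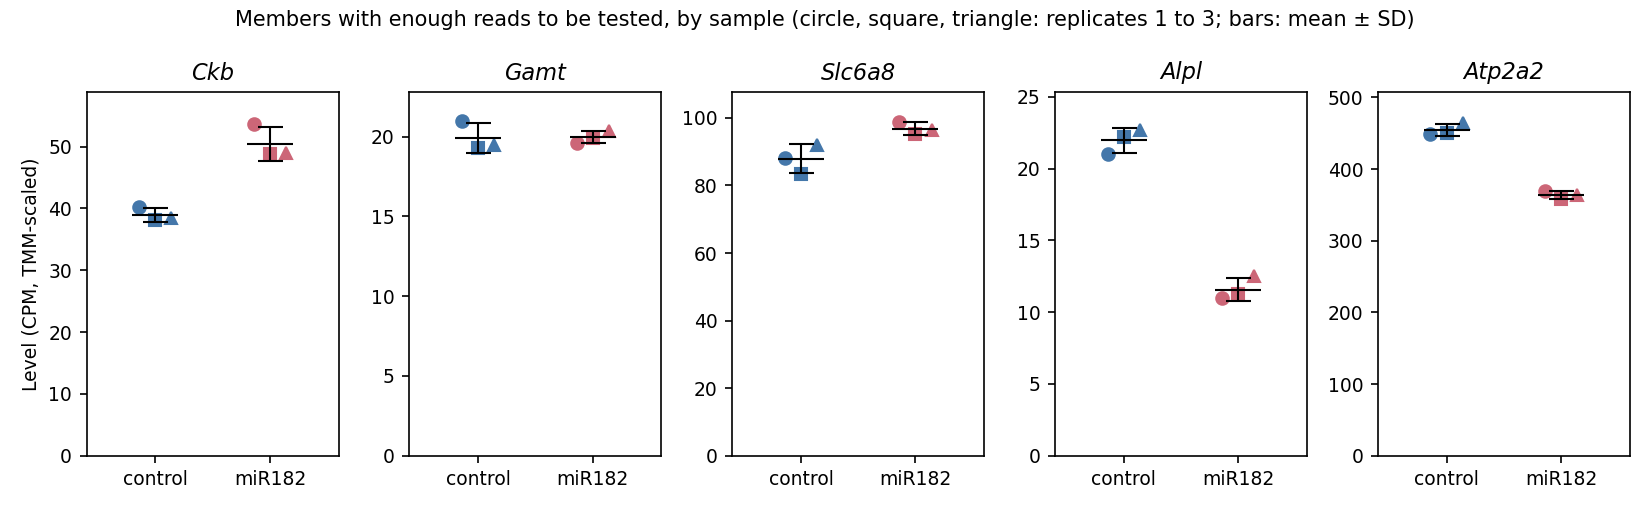
Level in CPM (linear axis from 0) of the 5 members with enough reads to be tested, with 1 point per sample and bars for the mean and SD of 3 samples. Ckb and Slc6a8 lie higher in all 3 miR182 samples, Alpl and Atp2a2 lie lower in all 3, and the groups overlap for Gamt. Such a separation of the groups was seen in 54.8% of all genes tested.

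Among the creatine kinases, Ckb carried nearly all reads. Ckb (chr12:111669361-111672338 of GRCm38, minus strand), the cytosolic brain-type kinase, had 1025, 998 and 1003 reads in control replicates 1 to 3 and 1568, 1285 and 1382 in miR182 replicates 1 to 3. In CPM these were 40.3, 38.2 and 38.4 in controls and 53.7, 48.8 and 48.9 with miR-182. Every miR182 sample lay above every control sample, and miR182 replicate 1 stood highest. The mean rose from 39.0 ± 1.13 to 50.5 ± 2.80 CPM (n = 3 per group), which is 0.37 on the log2 scale (standard error, SE, 0.049, edgeR adjusted p = 2.62e-05). This is under the 1.5-fold line, which lies at 0.585 on the log2 scale. Its log2 fold change was nevertheless above that of 93.4% of all genes tested.

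The other creatine kinases were at or near the limit of detection. Ckmt1 (chr2:121357714-121363737), the ubiquitous mitochondrial isoform, had 1, 3 and 4 reads in controls and 0, 2 and 1 with miR-182. Ckmt2 (chr13:91853387-91876885), the sarcomeric mitochondrial isoform, had 1 read in control replicate 1 and 0 in the other 5 samples. Ckm, the muscle isoform, had 0 reads in all 6 samples, which allows a level of up to 0.103 to 0.118 CPM per sample. No difference between the groups was detectable for these isoforms at this depth: for Ckmt1 the ratio of miR182 to control reads, scaled to library size, was 0.348 with an exact 95% interval from 0.0594 to 1.45. Ckb held between 99.60% and 100% of the creatine kinase reads of a sample, so hardly any transcript of the mitochondrial isoforms was seen beside it. These are transcript levels, and the amount and place in the cell of the proteins were not measured.

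Creatine synthesis and uptake were represented by 1 sparse and 2 well-measured genes. Gatm (chr2:122594467-122611303, minus strand), the first enzyme of synthesis, had 14, 10 and 12 reads in controls and 9, 6 and 9 with miR-182. Its CPM values did not overlap between the groups, from 0.383 to 0.550 against 0.228 to 0.319, but it fell short of the filter on low counts. Without that filter its log2 fold change was -0.69 (SE 0.39, edgeR adjusted p = 0.205), which did not pass the test, and the ratio of its reads was 0.618 with an exact 95% interval from 0.353 to 1.07. A separation of the groups in CPM was common, since 54.8% of all genes tested showed it.

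Gamt (chr10:80258151-80261012, minus strand), the methyltransferase that completes creatine synthesis, had 21.0, 19.3 and 19.5 CPM in controls and 19.6, 19.9 and 20.4 CPM with miR-182. The groups overlapped, and the means were 19.9 ± 0.949 and 20.0 ± 0.371 CPM (n = 3 per group). The log2 fold change was 0.0037 with a 95% interval from -0.12 to 0.13 (edgeR adjusted p = 0.964), and its sign varied with the settings.

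Slc6a8 (chrX:73673150-73682502, plus strand), the creatine transporter, had 88.2, 83.4 and 92.0 CPM in controls and 98.9, 95.2 and 96.5 CPM with miR-182. All 3 miR182 samples lay above the highest control sample, although the gap between the groups was smaller than the range of the controls. The mean rose from 87.9 ± 4.30 to 96.9 ± 1.91 CPM (n = 3 per group), which is 0.14 on the log2 scale (SE 0.038, edgeR adjusted p = 0.00718). Its 3′-UTR holds the seed match printed above, as do those of Alpl and Atp2a2, which fell. Of all genes tested, 74.8% had a lower log2 fold change. The ratio of Gamt to Slc6a8 CPM in a sample was 0.227 ± 0.014 in controls and 0.206 ± 0.0069 with miR-182 (n = 3 per group). The groups all but touched, with the lowest control at 0.2114 and the highest miR182 sample at 0.2110.

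Of the 5 members tested, Alpl moved most. Alpl (chr4:137741733-137796384, minus strand), whose phosphatase is known from mineralizing tissue and, in thermogenic fat cells, has been placed in mitochondria as a phosphocreatine phosphatase, had 535, 581 and 593 reads in controls and 320, 297 and 353 with miR-182. In CPM these were 21.0, 22.2 and 22.7 against 10.96, 11.3 and 12.5. The highest miR182 sample stood far below the lowest control sample. The mean fell from 21.99 ± 0.878 to 11.6 ± 0.815 CPM (n = 3 per group), which is -0.93 on the log2 scale (SE 0.068, edgeR adjusted p = 8.14e-08) with a 95% interval from -1.07 to -0.78. Only 2.11% of all genes tested had a lower log2 fold change. The interval spans the 2-fold line, and Alpl falls short of it, so no member passed a 2-fold cutoff.

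The kinase and the phosphatase of the proposed cycle therefore moved in opposite directions. In a given sample the ratio of Ckb to Alpl CPM was 1.92, 1.72 and 1.69 in controls and 4.90, 4.33 and 3.92 with miR-182. The ratio of Slc6a8 to Alpl was 4.20, 3.75 and 4.05 in controls and 9.03, 8.44 and 7.72 with miR-182. Both ratios separated the groups without overlap. They restate the changes of the single genes and compare mRNA levels, not enzyme activities.

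Markers of mineralizing cells, where Alpl is high, moved in both directions. Of 8 osteoblast markers 3 were tested and all passed the adjusted p, as did 46.7% of all genes tested. Sp7 rose from 4.55 ± 0.281 to 7.59 ± 0.640 CPM (n = 3 per group). Runx2, like Sp7 a transcription factor of bone formation, rose from 42.5 ± 1.52 to 53.8 ± 0.178 CPM. Spp1 fell from 112 ± 4.54 to 102 ± 3.47 CPM. Sp7 alone was called, where 7.45% of all genes tested were. In the rest of the list Dmp1 had 0 reads, and Bglap, Bglap2, Ibsp and Phex were too low to test. The summed level of the 8 was 153 to 164 CPM in controls and 160 to 166 CPM with miR-182, and their part in the fall of Alpl was not tested.

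Among the genes of calcium cycling, Atp2a2 was abundant and fell, and Ryr2 was close to absent. Atp2a2 (chr5:122453513-122502225, minus strand), encoding SERCA2, had 11421, 11777 and 12134 reads in controls and 10794, 9430 and 10290 with miR-182. In CPM these were 449, 451 and 465 against 370, 358 and 364, groups that did not overlap. The mean fell from 455 ± 8.78 to 364 ± 5.93 CPM (n = 3 per group), which is -0.32 on the log2 scale (SE 0.028, edgeR adjusted p = 4.98e-07). Atp2a2 had the most reads and the smallest standard error of the 5 members tested. In the annotation used, 83 of its 6081 exon bases are shared with the single-exon Gm43361 on the other strand. At 0.800-fold it was under the 1.5-fold line, and 15.1% of all genes tested had a lower log2 fold change.

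Atp2a2 made up 98.86% to 99.34% of the reads of the SERCA genes in every sample. Atp2a3, the SERCA3 pump of non-muscle cells, had 3.00 ± 0.282 CPM in controls and 3.49 ± 0.280 CPM with miR-182, and Atp2a1, the pump of fast muscle, had 0.514 ± 0.185 and 0.478 ± 0.029 CPM (n = 3 per group). Neither passed the test (adjusted p = 0.191 and 0.808 from edgeR). The small membrane proteins that restrain SERCA in muscle were not seen at any useful depth: phospholamban (Pln) had 4 reads over all 6 samples, and sarcolipin (Sln) had 0.

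Ryr2 (chr13:11553102-12106945, minus strand), the ryanodine receptor of heart muscle that has been assigned to calcium cycling in beige fat, had 2, 0 and 1 reads in controls and 0, 1 and 0 with miR-182 over 28790 exon bases. The ratio of miR182 to control reads was 0.309 with an exact 95% interval from 0.0059 to 3.85, so no difference was detectable at this depth. The other ryanodine receptors were as sparse, with 19 reads over all samples for Ryr1 and 19 for Ryr3. The release channels with reads were the IP3 receptors. Itpr1 rose from 98.2 ± 1.34 to 117 ± 1.003 CPM, Itpr2 fell from 47.2 ± 2.82 to 43.1 ± 1.11 CPM, and Itpr3 fell from 42.2 ± 0.762 to 36.5 ± 1.82 CPM (n = 3 per group). Their log2 fold changes were 0.25, -0.13 and -0.21 with adjusted p = 7.95e-06, 0.0433 and 0.00292 from edgeR, all under 1.5-fold.

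**Figure D2:**
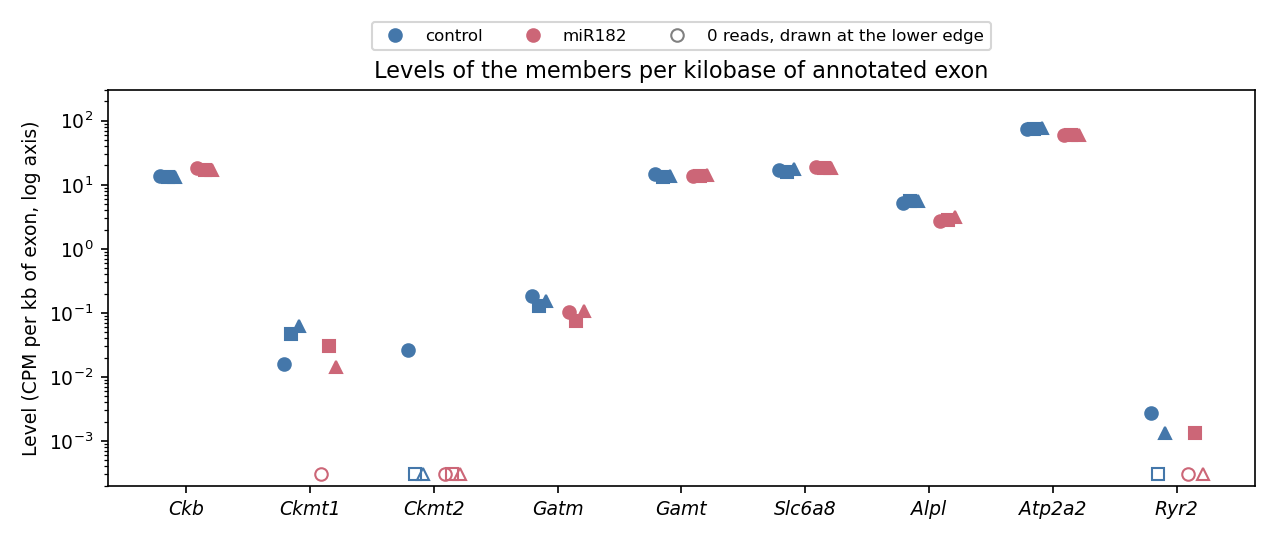
Level of each member in CPM per kilobase of annotated exon (log axis), with 1 point per sample. In controls Atp2a2 stands near 74.8, Slc6a8, Gamt and Ckb between 13.5 and 16.9, Alpl near 5.45, and Gatm, Ckmt1, Ckmt2 and Ryr2 far below, with open symbols for samples at 0 reads.

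Scaled to the length of annotated exons, the members spanned a wide range. In controls the levels were 74.8 ± 1.44 CPM per kilobase for Atp2a2, 16.9 ± 0.826 for Slc6a8, 13.8 ± 0.657 for Gamt, 13.5 ± 0.390 for Ckb and 5.45 ± 0.218 for Alpl (n = 3 per group). Gamt and Ckb did not differ beyond their spread, and the other neighbours among these 5 did. With miR-182 the order became Atp2a2 at 59.8 ± 0.975, Slc6a8 at 18.6 ± 0.367, Ckb at 17.4 ± 0.968, Gamt at 13.8 ± 0.257 and Alpl at 2.87 ± 0.202 CPM per kilobase, with Slc6a8 and Ckb now overlapping. Gatm (0.155 ± 0.028 in controls), Ckmt1 (0.041 ± 0.023), Ckmt2 and Ryr2 lay well below the others in both groups, and in controls the range of Ckmt2 overlapped those of Ckmt1 and Ryr2. The lengths come from a later annotation than the mm9 build named for the counts, so the order of close neighbours is approximate.

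**Figure D3:**
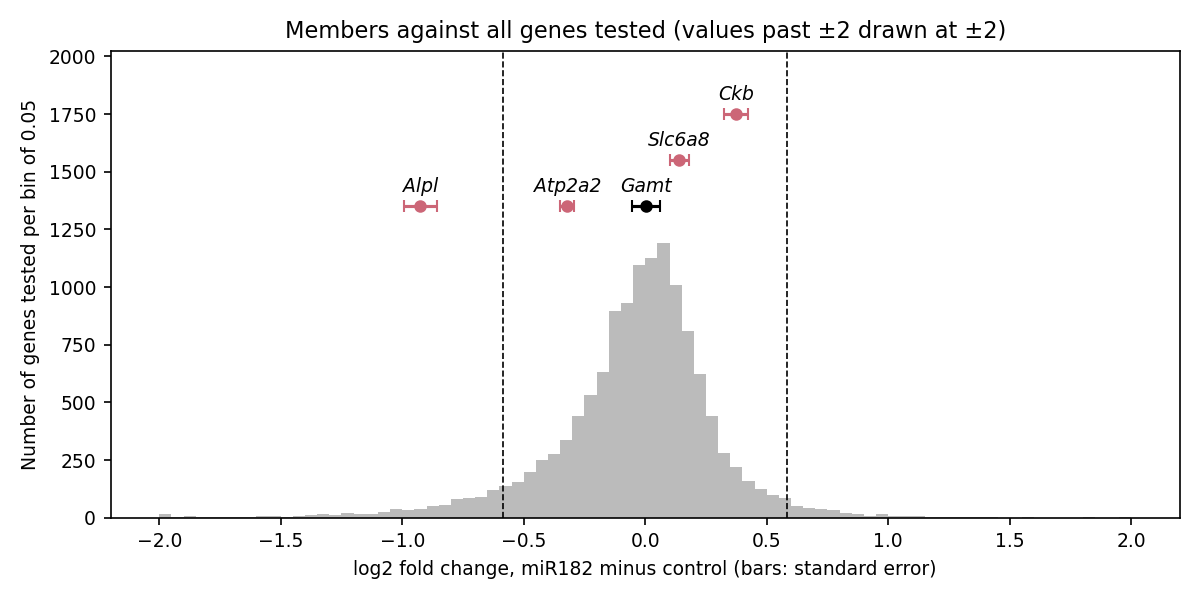
Log2 fold change of the 5 members tested (points with standard error, placed above the bars for legibility; black where the adjusted p was 0.964) over the distribution for all 13117 genes tested, with dashed lines at 1.5-fold. Alpl at -0.93 is outside the lines, and Ckb at 0.37 and Atp2a2 at -0.32 lie between the lines, inside the span from the 5th percentile of all genes tested at -0.65 to the 95th at 0.43.

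The wider pathway held a few large changes. Of 102 further genes of creatine supply, phosphate transfer, calcium handling and thermogenesis, 83 had enough reads to be tested and 5 were called, 2 higher and 3 lower, beside the 7.45% of all genes. By the adjusted p alone 50 of the 83 passed, 24 higher and 26 lower, where 46.7% of all genes tested did, 23.2% higher and 23.5% lower. The median log2 fold change was 0.003, against -0.0043 over all genes tested. The same 5 genes were among those called in each of the 6 fits that left out 1 sample.

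The largest change among the 83 was in Ak4, a mitochondrial adenylate kinase that belongs to another phosphate relay of the cell. Its reads numbered 446, 421 and 394 in controls and 1530, 1178 and 1336 with miR-182, with no overlap. The level rose from 16.2 ± 1.22 to 48.1 ± 3.91 CPM (n = 3 per group), which is 1.57 on the log2 scale (SE 0.069, edgeR adjusted p = 4.48e-10). Ak1, an adenylate kinase of the cytosol, fell by 0.29 and Ak3, of the mitochondrial matrix, by 0.13 on the log2 scale, both under 1.5-fold. Of the ADP/ATP carriers, Slc25a5 fell by 0.28 on the log2 scale (adjusted p = 1.79e-05), while Slc25a4 went from 447 ± 11.1 to 428 ± 11.6 CPM (n = 3 per group) and did not pass (edgeR adjusted p = 0.108). Enpp1, which makes the pyrophosphate that the Alpl product breaks down, was called lower, from 5.33 ± 0.430 to 3.12 ± 0.557 CPM (n = 3 per group), with a log2 fold change of -0.76 (edgeR adjusted p = 0.000362).

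Fkbp1a, which encodes the immunophilin FKBP12 that binds ryanodine receptors, had 3141, 3148 and 3163 reads in controls and 7536, 6607 and 6806 with miR-182. The level rose from 122 ± 1.499 to 250 ± 8.56 CPM (n = 3 per group), which is 1.04 on the log2 scale (SE 0.031, edgeR adjusted p = 1.08e-11). Transcripts of the ryanodine receptors were all but missing in these cells, as given above, and FKBP12 also binds other proteins, TGF-β family receptors among them. The related Fkbp1b, the usual partner of RYR2, had 13 to 29 reads per sample and did not pass (edgeR adjusted p = 0.276). Reads that align to more than 1 place were not counted on genes, so levels of genes with processed copies, such as Fkbp1a, Slc25a5 and the calmodulin genes, may be too low.

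In the list of arginine and methyl donor genes, not all of which feed creatine synthesis, 11 of 14 were tested, 2 rose, 5 fell and 4 did not pass. These counts and those of the lists that follow are by the adjusted p alone, which 46.7% of all genes tested passed (23.2% higher and 23.5% lower), and are given as descriptions of the lists. Ass1, the enzyme that makes argininosuccinate on the way to arginine, was the call, with 5.07, 5.40 and 4.29 CPM in controls and 1.95, 2.16 and 2.94 CPM with miR-182 (log2 fold change -1.06, SE 0.16, edgeR adjusted p = 7.42e-05). In the list of calcium pumps and exchangers 11 of 17 were tested, 4 rose and 2 fell, with the plasma membrane pump Atp2b4 rising furthest, by 0.36 on the log2 scale. In the list of endoplasmic reticulum calcium binding, store-operated entry and mitochondrial uptake all 21 were tested, 7 rose and 5 fell, none of them called. The store sensors went opposite ways there, Stim2 up from 32.7 ± 1.39 to 42.3 ± 2.07 CPM and Stim1 down from 71.0 ± 0.119 to 59.4 ± 2.40 CPM (n = 3 per group).

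**Figure D4:**
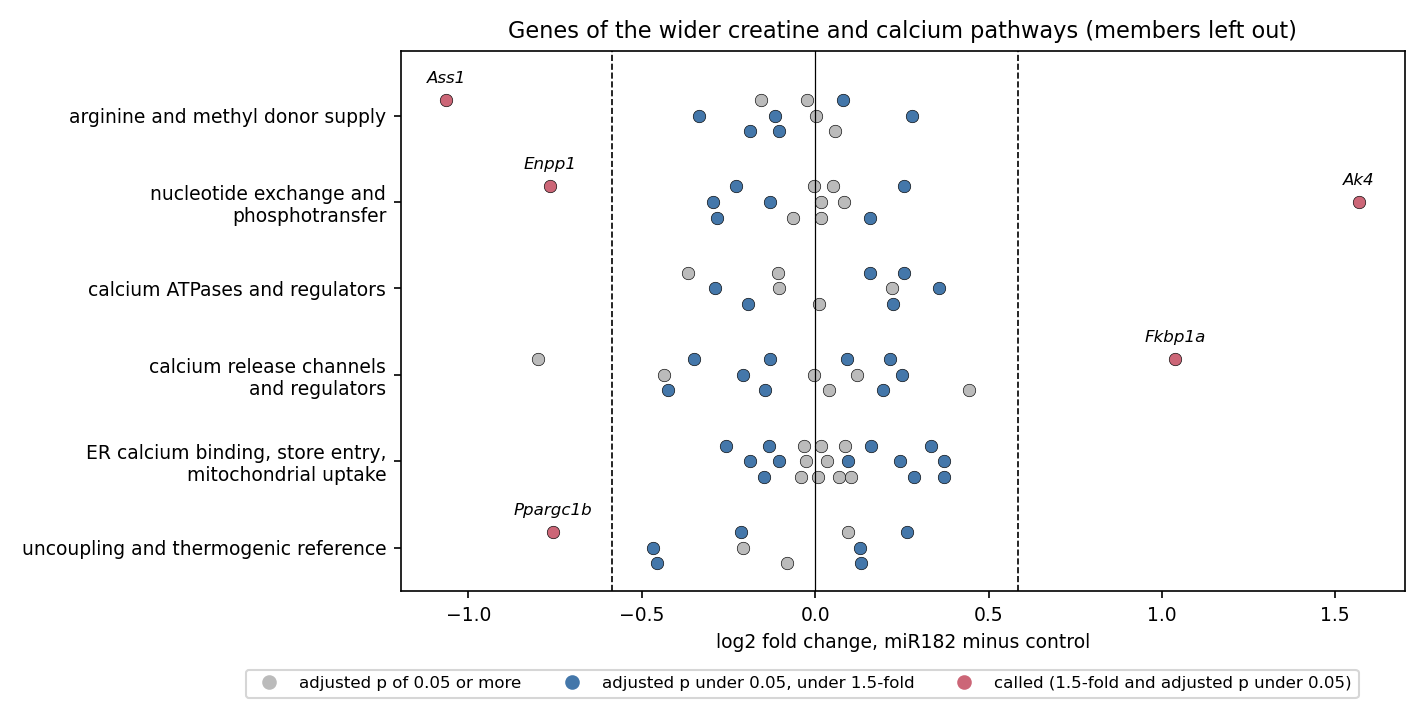
Log2 fold change (miR182 minus control) of the 83 tested genes of the wider pathway lists, 1 point per gene, staggered vertically for legibility, with dashed lines at 1.5-fold. Ak4 and Fkbp1a lie beyond the upper line, Ass1, Enpp1 and Ppargc1b lie beyond the lower line and were called, and the 1 grey point beyond the lower line, Camk2b, did not pass the adjusted p.

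Ucp1 itself was scarcely transcribed, with 6, 1 and 0 reads in controls and 1, 1 and 2 with miR-182, and the ratio of reads was 0.530 with an exact 95% interval from 0.114 to 2.08. Of the 14 genes of uncoupling and thermogenesis, 10 were tested, 3 rose and 4 fell by the adjusted p alone, beside 23.2% and 23.5% of all genes tested. Ppargc1b, a coactivator of mitochondrial genes, was the call, with 11.7, 12.3 and 13.1 CPM in controls and 6.10, 7.78 and 8.21 CPM with miR-182. On the log2 scale it fell by 0.75 (SE 0.10, edgeR adjusted p = 3.05e-05). The comparison therefore concerns cells with hardly any Ucp1 transcript in either group.

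Of the 83 tested genes, 5 held TTGCCAA in the 3′-UTR (6.02%, against 12.53% of all genes tested): Ahcyl1, Ak1, Atp2b4, Slc8a3 and Calu. Ahcyl1, with 3 matches, fell by 0.19 and Ak1 by 0.29 on the log2 scale, Atp2b4 and Calu rose, and Slc8a3 did not pass. Together with Slc6a8, which rose, and Alpl and Atp2a2, which fell, genes with the match were found on both sides. None of the 5 called genes of the wider pathway held a match, while Alpl, the called member, did. With so few matches among the 83, that count says little.

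Markers of cell types moved with the groups and are given beside these results. Of 10 adipocyte markers, 7 fell and 1 rose by the adjusted p. Their log2 fold changes ran from -0.85 for Retn to 0.37 for Lep, and Adipoq went from 928 ± 20.6 to 675 ± 55.9 CPM (n = 3 per group). The summed level was 12109 to 12885 CPM in controls and 8277 to 9371 CPM with miR-182. All 6 tested progenitor markers of 7 fell, with log2 fold changes from -1.53 for Cd34 to -0.35 for Ly6a. Pdgfra among them went from 449 ± 4.97 to 248 ± 7.54 CPM. Smooth muscle markers rose in 4 of 5 cases, with summed levels of 3503 to 3682 CPM in controls and 4188 to 4560 CPM with miR-182. Most of that sum was Acta2, from 2363 ± 68.7 to 2890 ± 121 CPM, and Tagln, from 1123 ± 28.6 to 1276 ± 84.5 CPM. Myh11 did not pass, at 18.1 ± 0.403 and 17.8 ± 0.835 CPM (edgeR adjusted p = 0.828). Of 6 neuronal and glial markers Tubb3 alone rose, from 56.0 ± 1.89 to 79.4 ± 0.867 CPM, while Rbfox3 was at 0. In bulk RNA fewer cells of a type and less RNA per cell cannot be told apart, and the part of these markers in the changes of Alpl, Atp2a2, Ckb and Slc6a8 was not tested.

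Muscle cells, in which Ckm, Ckmt2, Atp2a1, Sln and the ryanodine receptors are high, left few reads of their defining genes. Of 10 skeletal muscle markers 3 were tested, and 6 never exceeded 3 reads, with Myh4 and Myod1 at 0. Acta1 was called higher, from 18.4 ± 0.223 to 30.5 ± 2.19 CPM (n = 3 per group), and made up most of the summed level of the list, which was 26.8 to 27.8 CPM in controls and 36.4 to 40.1 CPM with miR-182. Of 5 cardiac markers 1 was tested and did not pass, with summed levels of 0.881 to 1.41 and 0.645 to 1.64 CPM. Macrophage markers summed to 14.5 to 15.6 CPM in controls and 12.4 to 15.8 CPM with miR-182, with 1 of 8 lower (Lyz2). Endothelial markers summed to 8.68 to 9.91 and 5.35 to 6.06 CPM, with 1 of 5 lower (Tek). Tek, from 6.05 ± 0.607 to 2.43 ± 0.246 CPM (n = 3 per group), made up most of the control sum. Kdr went the other way, from 1.59 ± 0.426 to 2.14 ± 0.201 CPM, and did not pass (edgeR adjusted p = 0.0899). Cdh5 and Vwf did not pass either, and Pecam1 was too low to test.

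The genes whose log2(CPM + 0.1) followed each changed member most closely over the 6 samples were Icmt, Kctd15 and Dcakd for Ckb (Pearson's r from 0.9968 to 0.9995), Nono, Eftud1 and 4930503L19Rik for Slc6a8 (0.9897 to 0.9937), Gatsl2, Fndc3b and Srpx for Alpl (0.9983 to 0.9988) and Arf2, Sae1 and Twistnb for Atp2a2 (0.9976 to 0.9983). The 6 points share the 2 groups and the library scaling, and such values are common: 818 genes exceeded r = 0.95 with Ckb, 113 with Slc6a8, 1194 with Alpl and 1143 with Atp2a2.

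With 3 samples against 3, the exact permutation test on log2(CPM + 0.1) cannot give a two-sided p below 0.1. It gave 0.1 for Ckb, Slc6a8, Alpl and Atp2a2 and 0.9 for Gamt. The adjusted p values above rest on the spread estimated across all genes.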

How the data were processed

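For each sample the authors deposited a list of genes with raw, unnormalized read counts. The submitters' processing notes name bcl2fastq, TopHat2, HTSeq and the build mm9. Versions, annotation and strand setting are not given in the sources used here. The 5 closing tally lines were left out (12.7% to 13.0% of the reads that aligned once fell in no gene). Counts were fitted in R 4.3.3 with edgeR 4.0.16 (TMM, filterByExpr at its minimum of 10 counts, glmQLFit, glmQLFTest, 2 groups, no block) and adjusted over 13117 genes. DESeq2 1.42.0 and limma 3.58.1 (voom) were alternatives. The fit was tested on simulated counts. A pseudocount of 0.1 CPM preceded log2. Exon lengths, coordinates and 3′-UTRs came from GENCODE M21, with lengths for 22208 of 22609 symbols, and 7 listed genes were matched through an older symbol. Low counts were compared as ratios with exact binomial intervals. Python 3.11.15, pandas 2.3.3, scipy 1.17.1 and matplotlib 3.10.9 made tables and figures.

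The members and lists were chosen with earlier results of these data known. Named were all members, their direct relatives and partners, called genes of the pathway lists, and markers given as examples or as the ends of a list's range. Other named genes (Ak1, Ak3, Stim1, Stim2, Atp2b4, Camk2b and those with seed matches) were chosen after their values were seen. Samples of 1 group differed by more than sampling noise (chi-square of counts per degree of freedom 2.12 to 7.18).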

Additional observations from a re-analysis of the deposited data

How the results depend on the processing

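Alpl, Atp2a2, Ckb and Slc6a8 kept their direction and an adjusted p under 0.05 in all 13 alternative fits of each (other scaling, tool or filter, the replicate block, and each sample left out), and Alpl also kept its 1.5-fold call in all 13. With 1 sample left out the log2 fold change ranged from -0.98 to -0.89 for Alpl, -0.33 to -0.30 for Atp2a2, 0.33 to 0.40 for Ckb and 0.10 to 0.18 for Slc6a8. Gamt changed sign with upper-quartile factors (-0.0083) and ranged from -0.019 to 0.043 with 1 sample left out, passing the test in none. With a 2-fold cutoff the main edgeR fit called 0 members, also at an unadjusted p under 0.05, and 3 pathway genes. In DESeq2 and voom 0 members reached 2-fold. With edgeR's glmTreat against 1.5-fold, Alpl stayed called and 3 pathway genes were called, without Enpp1 and Ppargc1b. Pathway calls ranged from 5 to 6 with 1 sample left out, the sixth being Fkbp1b without miR182 replicate 1, and pathway genes past the adjusted p from 38 to 49. Scaling alternatives moved the median of all genes to at most -0.0163.

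Same-numbered samples did not deviate together (correlations from -0.185 to -0.044). When the replicate number entered as a block, the members stood at -0.93 for Alpl, -0.32 for Atp2a2, 0.37 for Ckb, 0.14 for Slc6a8 and 0.0038 for Gamt on the log2 scale, 1 member and 5 pathway genes were called, and 4 members and 47 pathway genes passed the adjusted p. Ckmt1, Ckmt2, Gatm and Ryr2 could be fitted only without the filter, and the adjusted p was 0.205 or more for each. Depth limits what can be said of these 4.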
